A study of Mus musculus with 99 samples.

Results

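Gastrocnemius, the large calf muscle that extends the ankle, was compared with quadriceps, the thigh muscle that extends the knee, in exercised mice aged 18 months. The comparison uses 24 of the 97 RNA libraries in the count table. They are 12 of gastrocnemius and 12 of quadriceps, joined in 12 pairs by the number in their titles, and they were chosen from the labels without any measured value. One more exercised gastrocnemius library, titled Gas_10.2, was left out, since the quadriceps library of its number was not analysed here. Every mouse was a wild-type C57BL/6 male that had been perfused with saline before its tissues were frozen. The labels name the treatment as exercise and give neither its kind nor its duration. Sedentary mice of the same strain and sex serve as the 2 other groups, with 9 muscle pairs at 18 months and 10 at 10 months. The labels do not say that a number marks 1 animal, nor that libraries of a group come from separate animals, so p-values measure the spread between these libraries.

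Leg muscles are mixtures of fibres that are classed by their myosin heavy chain. Slow fibres use Myh7, and fast fibres use Myh2, Myh1 or Myh4, in order of falling oxidative capacity. Adult muscle and its connective tissue also keep part of the Hox and T-box expression that set position along the embryonic limb. A piece of muscle further holds fat, vessel, nerve, tendon and immune cells. In such bulk tissue, fewer cells of a type and less RNA per cell cannot be told apart.

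One pair, number 9.1, went against its labels and is described before the results. For this check, 137 genes were taken that differed at least 2-fold between the muscles, in the same direction, in both sedentary groups, 84 higher and 53 lower in gastrocnemius. In each of the other 11 exercised pairs, 127 to 135 of these genes (92.7% to 98.5%) had the sedentary direction. In pair 9.1, 13 genes (9.49%) did. Tbx1, a T-box transcription factor, lay between 3.08 and 5.29 CPM (counts per M counts of the library, after scaling) in the other 11 gastrocnemius libraries and between 30.7 and 48.9 CPM in the other 11 quadriceps libraries. It was 25.3 CPM in the library labelled gastrocnemius 9.1 and 4.47 CPM in the library labelled quadriceps 9.1. Hoxd10, a posterior Hox gene, lay between 4.15 and 8.41 CPM in gastrocnemius and between 0.463 and 2.55 CPM in quadriceps, but was 0.574 and 5.84 CPM in the libraries labelled gastrocnemius and quadriceps 9.1. Both genes thus sat in the range, or nearer to the range, of the other muscle. Zbed6, a zinc finger gene, did not: it was 21.5 CPM in the library labelled gastrocnemius 9.1 and 1.59 CPM in the one labelled quadriceps 9.1, as in the other pairs. The labels were kept, the 9.1 libraries are named as labelled, and values without 9.1 are given for the leading genes and, where they differ, for the list counts. CPM ranges and medians of exercised mice are over the other 11 pairs unless stated. Fold changes, SE and p-values are over 12 pairs unless stated. Of 175 named genes tested, 1, Lmod2, lost its call without 9.1 and none changed sign. Many of these genes were named for their calls in these same pairs, so the count cannot tell how far results depend on 9.1.

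**Figure D1:**
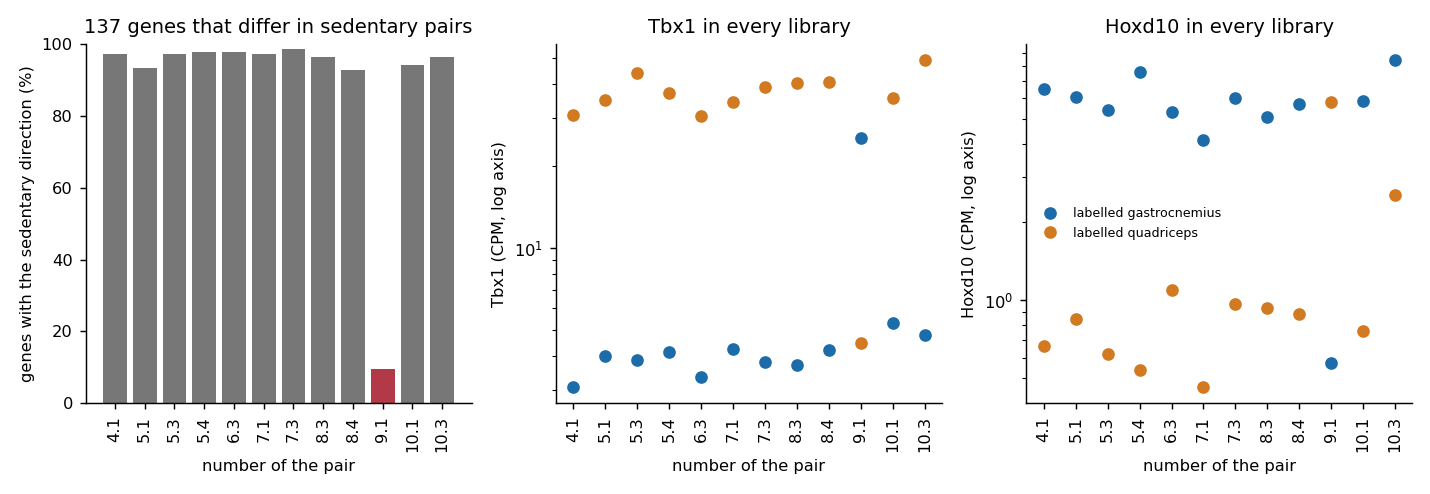
Left, the share (%) of 137 genes, chosen in sedentary mice, that had the sedentary direction in each exercised pair. Middle and right, Tbx1 and Hoxd10 in every library (CPM, log axis), by the number of the pair and coloured by labelled muscle. Pair 9.1 stands at 9.49% and its 2 libraries change places for both genes, while the other pairs stand at 92.7% or more.

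Total counts ran from 31.8 M to 62.8 M per library, and the highest total was that of the library labelled gastrocnemius 9.1. Mitochondrially encoded mRNA made up 12.6% ± 1.78 of counts in gastrocnemius and 15.3% ± 3.01 in quadriceps (SD, n = 12 each, exact sign-flip permutation test over pairs, two-sided, adjusted over 5 measures, p = 0.0260). Without 9.1 the shares were 12.3% and 15.6%, and gastrocnemius was lower in 11 of 11 pairs (exact test, adjusted p = 0.00488). More genes were detected in gastrocnemius, 20702 against 19969 (exact test, adjusted p = 0.00977), and 20569 against 19962 without 9.1. These counts were not adjusted for depth. Mean totals were 41.6 M in gastrocnemius and 37.4 M in quadriceps (exact test, adjusted p = 0.0825). The 10 most abundant genes made up 26.6% and 28.7% of counts (exact test, adjusted p = 0.0269). The libraries also differed in how counts related to gene length. This was measured as the slope of log2 CPM, relative to the mean of all 24 libraries, on each doubling of length. It was 0.0283 ± 0.042 in gastrocnemius and -0.0283 ± 0.026 in quadriceps (exact test, adjusted p = 0.0159), higher in gastrocnemius in 11 of 12 pairs. The libraries Gas_10.3 and Quad_10.3 had the opposite order, and pair 9.1 followed its labels with 0.0629 and 0.0273.

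Of 14540 genes tested, 4870 (33.5%) were called at an adjusted p under 0.05. Of these, 2390 (16.4%) were higher and 2480 (17.1%) lower in gastrocnemius. Most differences were small: the median absolute log2 fold change of called genes was 0.25, and 160 genes (1.1%) were called with at least a 2-fold change, 80 in each direction. Without 9.1, 6039 of 14515 genes (41.6%) were called, 3188 (22%) higher and 2851 (19.6%) lower, and 220 (1.52%) of them by at least 2-fold. The fits shared 4759 called genes with the same sign. Counts for lists below stand against 16.4% of all genes called higher and 17.1% lower, or 22% and 19.6% without 9.1. A list near these shares does not stand out from all genes. All fold changes below are log2 values of gastrocnemius over quadriceps, with their standard error (SE), and "higher" or "lower" refers to gastrocnemius.

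Genes that mark position along the limb were among those that differed most. Of 31 Hox genes tested, 9 were called higher and 8 lower (11 and 8 without 9.1), with opposite directions in the Hoxd and Hoxc clusters. The median of the list was -0.03, against 0.00087 over all genes. All 5 tested genes of the Hoxd cluster (Hoxd3, Hoxd4, Hoxd8, Hoxd9 and Hoxd10) were higher, whereas 5 of the 6 called genes of the Hoxc cluster (Hoxc5, Hoxc6, Hoxc8, Hoxc9 and Hoxc10) were lower, Hoxc11 being the exception. Grouping by cluster was chosen after the values were seen. Hoxd10 (chromosome 2, 74691924 to 74695105, GRCm38) had a median of 5.87 CPM in the 11 gastrocnemius and 0.848 CPM in the 11 quadriceps libraries. Its fold change was 2.31 (SE 0.42, adjusted p = 0.000841) in 12 pairs and 2.76 (adjusted p = 7.84e-11) without 9.1. Hoxa11, which patterns the middle segment of the limb, ranged from 2.42 to 4.64 CPM (median 3.39) in gastrocnemius and from 0.262 to 0.905 CPM (median 0.628) in quadriceps. Its fold change was 2.12 (SE 0.41, adjusted p = 0.00123), and 2.59 without 9.1. Hoxd9 ranged from 15.1 to 22.4 CPM against 3.14 to 6.68 CPM, and Hoxd8 from 37.2 to 59.4 CPM against 7.67 to 16.6 CPM. For these 4 genes the 11 libraries of one muscle did not overlap those of the other. How many of all genes tested did the same is not given here, so non-overlap only describes the genes named. Hoxc8 had the reverse order, with 0.554 to 1.27 CPM in gastrocnemius and 2.61 to 4.09 CPM in quadriceps (-1.53, SE 0.26, adjusted p = 0.000593; -1.81 without 9.1). Hoxc10 was far more abundant in both muscles and differed little, with medians of 90.7 and 105 CPM (-0.27, SE 0.06, adjusted p = 0.00266). Hoxa11 shares 800 exon bases with its antisense gene Hoxa11os, and reads of the pair cannot be told apart unless the counting used strand. Hoxc10 shares 166 exon bases with Hoxc5 on the same strand, so how reads there were divided is uncertain. Hoxc8 lies within the span of Hoxc5.

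Among 43 tested patterning factors outside the Hox clusters, 9 were called higher and 11 lower (13 and 12 without 9.1). Tbx1 (chromosome 16, 18580979 to 18590671) had the largest negative fold change of the named genes apart from Ibsp, at -2.89 (SE 0.37, adjusted p = 7.37e-05), and -3.22 (adjusted p = 1.81e-17) without 9.1. Its medians were 4.0 CPM in gastrocnemius and 37.2 CPM in quadriceps. Tbx4, a T-box factor of the hind limb, was higher, with medians of 2.98 and 1.83 CPM (0.59, SE 0.11, adjusted p = 0.00132; 0.70 without 9.1). Eya4, a transcriptional cofactor of homeobox proteins in muscle, was higher, from 55.4 to 84.6 CPM against 40.5 to 51.4 CPM (0.44, SE 0.08, adjusted p = 0.000806). Prrx1, a factor of limb connective tissue, differed by 0.27 (SE 0.04, adjusted p = 0.000355). Sim1 (-1.31), Zic1 (-0.94) and Emx2 (-0.84) were also called lower, and Barx2 (0.57), Prox1 (0.53) and Mkx (0.50) higher. Pitx1, a hind limb factor, had 1 to 32 counts per library and did not pass the filter on low counts. Aldh1a2, which makes retinoic acid, had medians of 7.72 CPM in gastrocnemius and 1.4 CPM in quadriceps, without overlap in the 11 pairs (1.82, SE 0.31, adjusted p = 0.000494; 2.17 without 9.1).

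**Figure D2:**
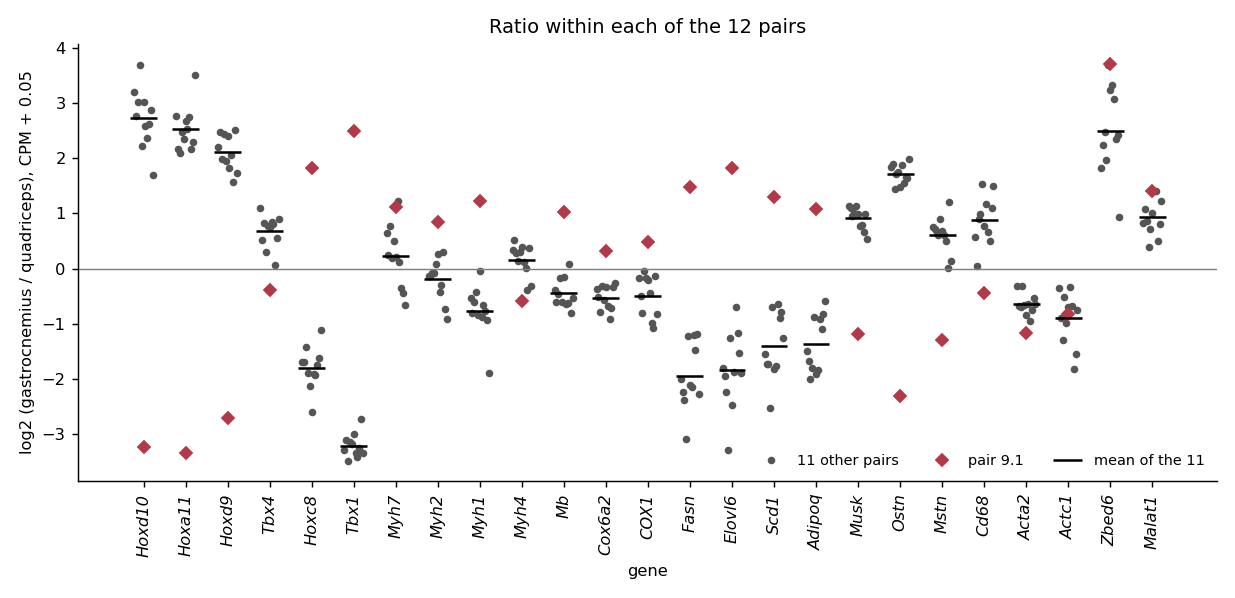
Log2 ratio of gastrocnemius to quadriceps (CPM + 0.05) for 25 genes in each of the 12 pairs. Grey points are the 11 other pairs, the red diamond is pair 9.1 and the line is the mean of the 11. Hoxd10, Tbx1, Fasn and Ostn show pair 9.1 on the opposite side of 0, whereas Acta2, Actc1, Zbed6 and Malat1 show it on the side of the other pairs.

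Among the genes of both fibre type lists, the largest difference was in Myh1, the IIx myosin heavy chain. On the length-scaled TPM scale both muscles had the same order of mean level. In gastrocnemius Myh4, the IIb chain, stood at 19276 ± 3420 TPM, Myh1 at 2455 ± 961, Myh2, the IIa chain, at 1378 ± 435 and the slow chain Myh7 at 64.6 ± 17.1 (SD, n = 12). In quadriceps the levels were 15850 ± 3123 TPM for Myh4, 3150 ± 790 for Myh1, 1268 ± 251 for Myh2 and 45.8 ± 10.6 for Myh7. The highest Myh1 level, 4722 TPM, was under the lowest Myh4 level, 10127 TPM, while Myh1 and Myh2 overlapped in both muscles. These TPM values include the 9.1 libraries as labelled. In CPM, Myh1 ran from 3312 to 9295 (median 6343) in gastrocnemius and from 4427 to 13670 (median 9566) in quadriceps, so that the muscles overlapped. Its fold change was -0.61 (SE 0.17, adjusted p = 0.0121), and -0.75 (adjusted p = 4.29e-05) without 9.1. In the 9.1 libraries it was 12404 and 5325 CPM, the opposite order.

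Neither Myh7 (0.30, adjusted p = 0.109), Myh2 (-0.11, adjusted p = 0.500) nor Myh4 (0.10, adjusted p = 0.484) passed the test, with 9.1 or without. With each library's length slope as a covariate, Myh7 was -0.035 without 9.1. Of 18 slow fibre contractile genes, 4 were called higher and none lower: the light chain Myl2 (0.42, SE 0.08, adjusted p = 0.00117), the Z-disc protein Csrp3 (0.51, SE 0.19, adjusted p = 0.0454), the slow calcium pump Atp2a2 (0.25, SE 0.09, adjusted p = 0.0457) and the actin nucleator Lmod2 (0.20, SE 0.08, adjusted p = 0.0467). Csrp3, Atp2a2 and Lmod2 also lost their calls when some single other pairs were left out. Without 9.1 the split was 3 higher and 3 lower, since Lmod2 lost its call (adjusted p = 0.0506) while Myl6b, Casq2 and Mybpc1 were called lower. Of 18 fast fibre genes, 5 were called lower and none higher (6 and none without 9.1): Myh1, the light chain Mylpf (-0.26, SE 0.08), the calcium buffer Pvalb (-0.23, SE 0.07), the fast calcium pump Atp2a1 (-0.24, SE 0.08) and the kinase Mylk2 (-0.16). The troponins of both fibre classes, Tnnt1, Tnni1 and Tnnc1 (0.12 to 0.25) and Tnnt3, Tnni2 and Tnnc2 (-0.14 to -0.06), did not pass the test, and the latter 3 were 0.016 to 0.097 with the length slope. Actc1, the cardiac actin that adult muscle keeps at low level, was lower in all 12 pairs, including 9.1, which mostly went against its labels. Actc1 ran from 45.9 to 315 CPM (median 68.0) in gastrocnemius and from 86.9 to 620 CPM (median 120) in quadriceps. The fold change of Actc1 was -0.89 (SE 0.11, adjusted p = 5.62e-05).

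Most genes of oxidative metabolism were lower in gastrocnemius. Of 76 nuclear genes of oxidative phosphorylation, 65 were called lower and none higher, with a median of -0.25. Without 9.1, 72 were lower, with a median of -0.28. Fold changes ran from -0.52 to -0.04. Cox7a1, a muscle subunit of complex IV, differed by -0.52. Cox6a2, another muscle subunit of complex IV, ran from 553 to 787 CPM (median 637) in gastrocnemius and from 730 to 1100 CPM (median 937) in quadriceps (-0.46, SE 0.08, adjusted p = 0.000771). The complex I subunits Ndufs8 (-0.43, SE 0.08) and Ndufa1 (-0.31, SE 0.05) were also lower. Of 13 mRNAs encoded in mitochondria, 8 were called lower (11 without 9.1), with a median of -0.36. COX1 ran from 34896 to 55114 CPM in gastrocnemius and from 35933 to 83110 CPM in quadriceps (-0.41, SE 0.13, adjusted p = 0.0183), and CYTB (-0.39, SE 0.11), ND2 (-0.37, SE 0.11) and ND4 (-0.42, SE 0.11) had the same direction. Myoglobin, Mb, which stores oxygen, had medians of 2567 and 3766 CPM (-0.33, SE 0.12, adjusted p = 0.0442; -0.44, adjusted p = 0.000125, without 9.1), a call that was lost without most single other pairs.

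Of 22 genes of mitochondrial biogenesis and oxygen handling, 4 were called higher and 5 lower (4 and 9 without 9.1). Ppargc1a, the coactivator of mitochondrial biogenesis, had medians of 39.9 CPM in gastrocnemius and 33.1 CPM in quadriceps (0.26, SE 0.05, adjusted p = 0.000710). The nuclear receptor Esrrg (0.46, SE 0.07, adjusted p = 0.000185), the factor Gabpa (0.20, SE 0.05) and the oxygen-responsive factor Hif1a (0.17, SE 0.04) were higher. Vegfb (-0.28) and the mitochondrial creatine kinase Ckmt2 (-0.28) were among those lower.

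Gene length moved with these groups. The median length of the nuclear oxidative phosphorylation genes was 759 bases, against 3461 over all genes tested. Of 5 length classes, the shortest had a median fold change of -0.09, with 180 genes called higher and 847 lower, and the longest a median of 0.12, with 1090 higher and 181 lower. A fit with each library's length slope as a covariate left 140 genes called in 12 pairs and 2405 in 11 pairs. Of the 175 named genes, 136 kept their sign but lost their call with it in 12 pairs and 9 changed sign, and without 9.1 the counts were 47 and 8. Zbed6, Lnpep, Malat1, Vcan, Tbx1, Acta2, Actc1 and Comp were among those called with the slope in 12 pairs. The slope and the labelled muscle were aligned in 11 of 12 pairs, and in 10 of 11 without 9.1. Their parts thus cannot be told apart with 9.1 or without. With the slope, 0 genes of either list were called in 12 pairs. With the slope and without 9.1, 20 of the 76 nuclear oxidative phosphorylation genes and 0 of the 13 mitochondrial mRNAs were called lower, and none of either was called higher.

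**Figure D3:**
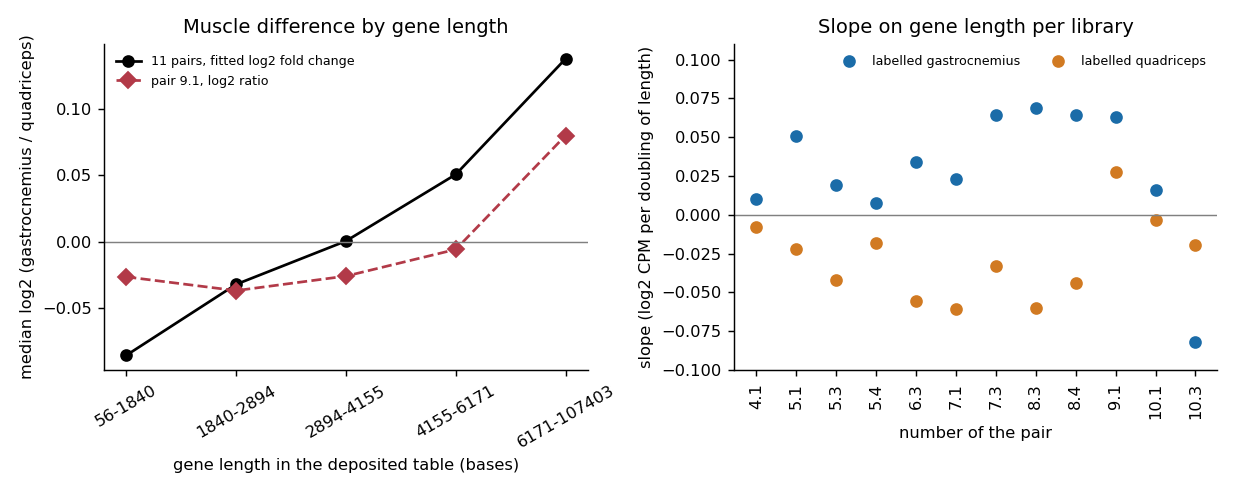
Left, median log2 ratio of gastrocnemius to quadriceps for genes in 5 classes of length (bases), as fitted over 11 pairs (black) and in pair 9.1 (red). Right, each library's slope of log2 CPM per doubling of gene length, by pair and labelled muscle. The medians rise from class to class in the 11 pairs, the longest class has the highest median in pair 9.1 too, and gastrocnemius has the higher slope in every pair except Gas_10.3 and Quad_10.3.

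Genes of fatty acid use were mostly lower as well. Of 34 genes of fatty acid uptake and oxidation, 22 were called lower and 1 (Acot2, a mitochondrial thioesterase, 0.20) higher, with a median of -0.21. Without 9.1, 26 were lower, and 18 were with the length slope added, which left 0 in 12 pairs. The transporters Slc27a1 (-0.33, SE 0.06) and Slc27a4 (-0.31, SE 0.05), the electron carrier Etfb (-0.41, SE 0.08) and the isomerase Eci2 (-0.25, SE 0.05) had adjusted p-values of 0.000226 to 0.00143. Glycolysis and glycogen breakdown were mixed, with 6 of 32 genes higher and 8 lower (8 and 10 without 9.1). Over all genes, 16.4% were called higher and 17.1% lower in 12 pairs. The phosphorylase kinase subunit Phka1 was higher, from 812 to 1186 CPM against 551 to 892 CPM (0.35, SE 0.07, adjusted p = 0.00156). The enzymes Pgam2 (-0.30, SE 0.07), Pfkl (-0.28, SE 0.07) and Eno1 (-0.18, SE 0.04) were lower. On the TPM scale the mean of Eno1 was 73.8 in both muscles. The TPM means in gastrocnemius and quadriceps were 3404 and 3684 for Pgam2 and 5.83 and 6.19 for Pfkl. Among 18 genes of glucose transport and energy sensing, 7 were higher and 1, the kinase Akt2 (-0.20, SE 0.05), lower (8 and 2 without 9.1). Akt2 had TPM means of 90.5 in gastrocnemius and 91.3 in quadriceps. The median length of this glucose list was 4949 bases, against 3461 over all genes tested. The insulin receptor Insr (0.27, SE 0.05), its substrate Irs2 (0.41, SE 0.10) and the AMPK subunit Prkab2 (0.24, SE 0.06) were among those higher.

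Fatty acid synthesis genes were mostly lower, and some by more than 2-fold. Of 21 genes of lipogenesis and cholesterol synthesis, 13 were called lower and 1 higher, with a median of -0.29. Without 9.1 the counts were the same, and 11 were lower with the length slope added, which left 0 in 12 pairs. Fasn, fatty acid synthase (chromosome 11, 120805846 to 120824547), ran from 33.7 to 147 CPM (median 72.9) in gastrocnemius and from 180 to 387 CPM (median 301) in quadriceps, so that the 11 libraries of the muscles did not overlap. Its fold change was -1.71 (SE 0.27, adjusted p = 0.000279), and -1.93 (adjusted p = 1.71e-08) without 9.1. Elovl6, which lengthens palmitate, ran from 1.11 to 4.40 CPM against 5.36 to 15.5 CPM (-1.52, SE 0.30, adjusted p = 0.00143; -1.81 without 9.1). Scd1, the desaturase that makes oleate, ran from 107 to 367 CPM against 403 to 728 CPM (-1.21, SE 0.23, adjusted p = 0.00101). Thrsp, a small protein of lipogenic tissues, ran from 8.35 to 19.5 CPM against 30 to 49.4 CPM (-1.14, SE 0.19, adjusted p = 0.000428). Acly, which makes cytosolic acetyl-CoA, differed by -1.03 and the diglyceride acyltransferase Dgat2 by -0.73. In the library labelled gastrocnemius 9.1, Fasn stood at 497 CPM, and in that labelled quadriceps 9.1 at 178 CPM. Scd1 stood at 884 and 361 CPM in these libraries, and Thrsp at 60.4 and 26.4 CPM.

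The promoters of 3 of the genes that were lower together, Fasn, Thrsp and Acly, are shown as examples that held a CCAAT box. They are RefSeq sequences of GRCm38.p6, from 250 bases before to 50 bases after the start, on the gene's strand. Capitals mark CCAAT, the box bound by NF-Y, or its reverse complement ATTGG.
Fasn (chr11:120824498-120824797, minus strand): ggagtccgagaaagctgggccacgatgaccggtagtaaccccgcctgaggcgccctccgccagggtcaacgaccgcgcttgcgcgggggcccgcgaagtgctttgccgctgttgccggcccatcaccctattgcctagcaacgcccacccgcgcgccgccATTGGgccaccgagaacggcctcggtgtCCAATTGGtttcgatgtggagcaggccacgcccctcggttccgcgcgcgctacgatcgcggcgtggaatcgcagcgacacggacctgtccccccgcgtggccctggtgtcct
Thrsp (chr7:97417501-97417800, minus strand): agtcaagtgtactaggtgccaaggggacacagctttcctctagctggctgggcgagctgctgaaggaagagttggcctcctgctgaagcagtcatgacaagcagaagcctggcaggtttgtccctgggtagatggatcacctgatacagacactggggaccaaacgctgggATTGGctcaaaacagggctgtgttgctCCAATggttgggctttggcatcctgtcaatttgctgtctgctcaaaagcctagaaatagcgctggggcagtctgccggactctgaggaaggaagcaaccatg
Acly (chr11:100527951-100528250, minus strand): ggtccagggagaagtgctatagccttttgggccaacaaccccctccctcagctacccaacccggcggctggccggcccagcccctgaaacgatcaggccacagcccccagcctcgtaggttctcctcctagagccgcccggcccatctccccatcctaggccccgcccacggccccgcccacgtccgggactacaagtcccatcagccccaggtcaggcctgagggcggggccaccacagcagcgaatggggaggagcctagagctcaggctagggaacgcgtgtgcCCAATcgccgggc

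Fasn held 3 such boxes, of which those in CCAATTGG overlap, Thrsp held 2 and Acly 1, which lies after the start. The promoter table held 13 of the 21 list members. On either strand, 9 of the 13 held CCAAT, 2 held the E-box CACGTG and 2 held TCACNCCAC, a form of the sterol response element. Among all 32851 promoters of this length, 37.4% held CCAAT, 7.15% CACGTG and 1.24% TCACNCCAC. Elovl6, Acaca and Me1 held none of the 3 in this window. A match describes the letters only.

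Markers of fat cells moved with the lipogenic genes. Of 10 adipocyte markers, 9 were called lower and 1, Car3, higher, with or without 9.1. Adipoq, the hormone adiponectin, ran from 4.48 to 15.7 CPM (median 7.96) in gastrocnemius and from 16.6 to 33.7 CPM (median 21.2) in quadriceps (-1.16, SE 0.20, adjusted p = 0.000605). Cfd, the secreted protease adipsin, ran from 27.1 to 84.3 CPM against 101 to 200 CPM (-1.32, SE 0.20, adjusted p = 0.000236), and Retn, the hormone resistin, from 2.73 to 7.64 CPM against 9.77 to 15.2 CPM (-1.21, SE 0.20). The leptin gene Lep had medians of 0.761 and 1.48 CPM (-0.90, SE 0.23, adjusted p = 0.00744). The 9 markers other than Car3 summed to 201 to 301 CPM in gastrocnemius and to 356 to 535 CPM in quadriceps, lower in 11 of 11 pairs. In the libraries labelled gastrocnemius and quadriceps 9.1 they summed to 475 and 271 CPM. Their part in the lower lipogenic genes was not tested. Car3, a carbonic anhydrase that muscle fibres also make, ran from 1191 to 2209 CPM against 632 to 1235 CPM (0.78, SE 0.13, adjusted p = 0.000433). Of 4 brown and beige fat markers tested, Cidea (-1.36, SE 0.25) and Cox8b (-0.19, SE 0.06) were lower, of which Cox8b, also on the oxidative list, was 0.049 with the length slope. The TPM means of Cox8b were 1574 in gastrocnemius and 1578 in quadriceps. Adrb3, the fat cell's beta receptor, ran from 0.301 to 1.41 CPM against 2.1 to 8.19 CPM (-1.89, SE 0.37, adjusted p = 0.00142).

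**Figure D4:**
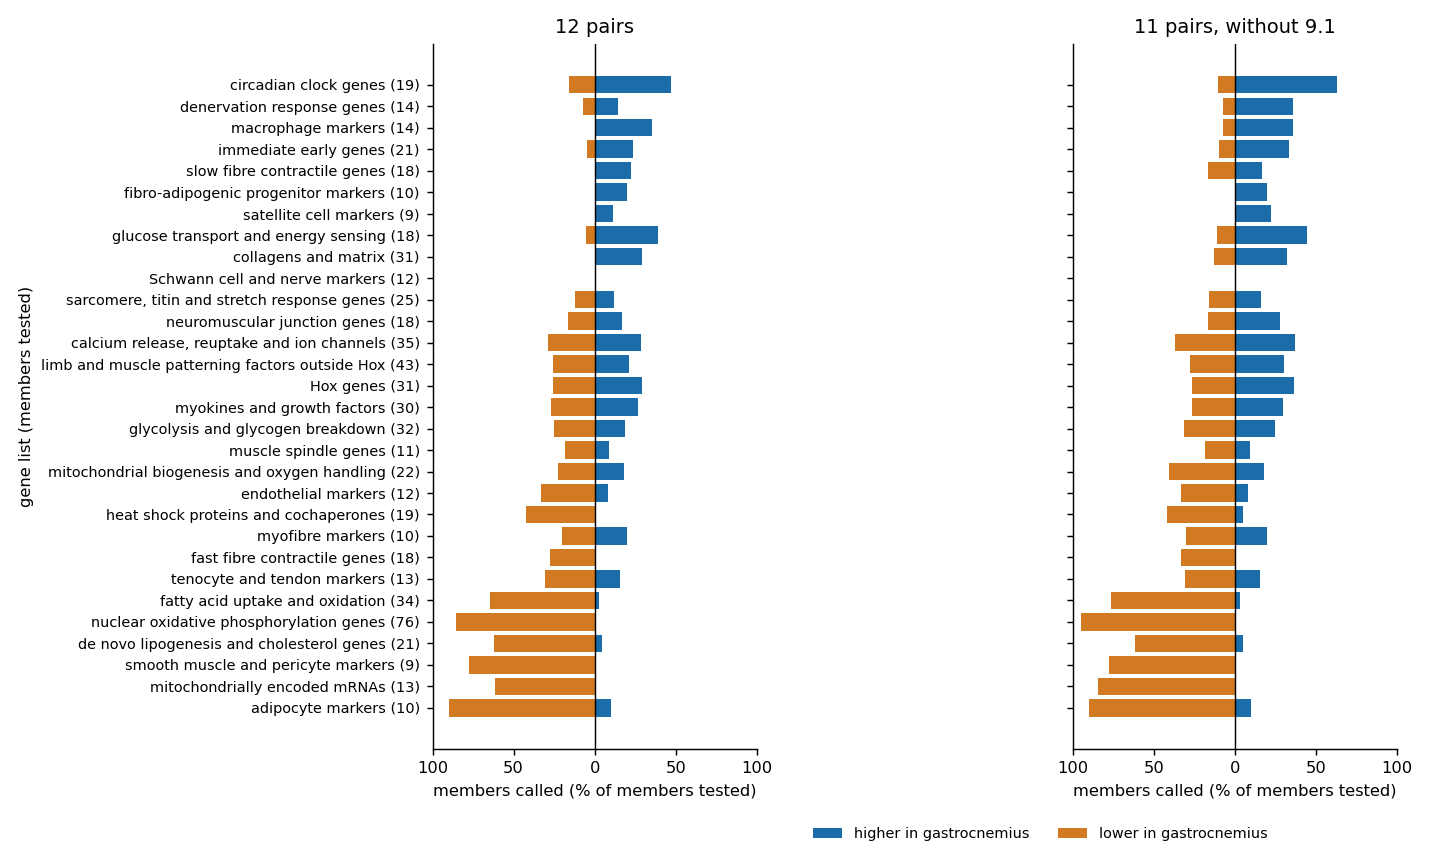
Share of the tested members called higher (blue) or lower (orange) in gastrocnemius, for 12 pairs (left) and for 11 pairs without 9.1 (right). Only gene lists with at least 9 members tested are drawn. Numbers in brackets are members tested. Nuclear oxidative phosphorylation genes (65 of 76 lower, then 72) and adipocyte markers (9 of 10 lower in both) stand out against 17.1% and 19.6% of all genes called lower.

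Other cell types differed too. Of 9 smooth muscle and pericyte markers tested, 7 were called lower and none higher. The smooth muscle actin Acta2 was lower in all 12 pairs, from 24.5 to 41.6 CPM (median 31.3) in the 11 gastrocnemius libraries against 36.0 to 65.1 CPM (median 47.8) in quadriceps, and 29.6 against 66.5 CPM in pair 9.1 (-0.68, SE 0.06, adjusted p = 5.97e-06). The smooth muscle myosin Myh11 (-0.51, SE 0.06, adjusted p = 3.79e-05), also lower in all 12 pairs, and Lmod1 (-0.41, SE 0.07) had the same direction. Of 12 endothelial markers, 4 were lower, among them Tie1 (-0.32, SE 0.06) and the junction protein Cldn5 (-0.27, SE 0.06), and 1, Vwf (0.17, SE 0.05), was higher. All 5 red cell genes tested were lower, Hbb-bs by -0.59 (SE 0.19, adjusted p = 0.0252) and Hba-a1 by -0.63 (SE 0.20), and 0 were called with the length slope added, with 9.1 or without, where Hbb-bs was 0.065 in 12 pairs. The globin genes have near-identical copies, so their counts are uncertain one by one. Of 12 Schwann cell and nerve markers, 0 were called by edgeR, DESeq2 or limma, 2 had an unadjusted p under 0.05 in edgeR, and the list ran from -0.34 to 0.18. Their sum was 67.8 to 147 CPM in the 11 gastrocnemius and 84.2 to 108 CPM in the 11 quadriceps libraries, and 184 CPM in the library labelled quadriceps 9.1.

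Among immune markers, 5 of 14 macrophage genes were higher and none lower (5 and 1 without 9.1), and their sum was higher in gastrocnemius in 9 of 11 pairs. Cd68, a lysosomal protein of macrophages, ran from 4.2 to 10.7 CPM (median 6.2) against 2.46 to 4.70 CPM (median 3.31), a fold change of 0.78 (SE 0.14, adjusted p = 0.000815). The lysozyme Lyz2 ran from 56.2 to 173 CPM against 28.7 to 65.2 CPM (0.72, SE 0.13). Csf1r, Mrc1 and the complement genes C1qa, C1qb and C1qc, which mark macrophages as well, were not called (0.02 to 0.27). Of 5 lymphocyte markers tested, 4 were lower, of which the B and T cell genes Cd79a (-0.98, SE 0.22), Cd3e (-0.93, SE 0.20) and Cd79b (-0.54, SE 0.19) stood at levels mostly under 1 CPM, while Ptprc, the pan-leukocyte phosphatase, was higher (0.39, SE 0.14). Spp1, osteopontin, ran from 3.95 to 11.5 CPM against 1.3 to 3.17 CPM (1.47, SE 0.23, adjusted p = 0.000261; 1.72 without 9.1). Of the 2 neutrophil, 5 mast cell, 3 neuron and 2 skin genes tested, edgeR and DESeq2 called 0 in 12 pairs, and 1 skin gene had an unadjusted p under 0.05 in edgeR. limma called 4 mast cell genes and 1 skin gene, and without 9.1 edgeR called 1 neutrophil, 1 mast cell and 1 skin gene.

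Several genes of tendon, cartilage and bone were lower. Of 13 tenocyte and tendon markers, 4 were lower and 2, the factors Scx (0.34) and Mkx (0.50), higher. Comp, a cartilage and tendon matrix protein, ran from 4.96 to 8.60 CPM against 8.36 to 17.4 CPM (-1.0, SE 0.14, adjusted p = 0.000115). Chad (-0.85, SE 0.14) and Fmod (-0.44, SE 0.08), both small leucine-rich matrix proteins, were lower as well. Prg4, the joint lubricant lubricin, ran from 9.75 to 14.7 CPM against 24.5 to 76.3 CPM (-1.81, SE 0.31, adjusted p = 0.000564; -2.07 without 9.1). Col2a1, the cartilage collagen, stayed at or under 0.359 CPM in gastrocnemius and ran from 0.628 to 1.51 CPM in quadriceps (-1.90, SE 0.28, adjusted p = 0.000193). Ibsp, a bone matrix protein, was at most 0.0241 CPM in the 11 gastrocnemius libraries and 0.377 to 1.24 CPM in the quadriceps libraries. The summed tendon markers were lower in gastrocnemius in 11 of 11 pairs, and so were the summed bone and cartilage markers. Among 31 collagen and matrix genes, 9 were higher and none lower (10 and 4 without 9.1). The median length of this list was 5222 bases, against 3461 over all genes tested. Postn, periostin, was higher in all 12 pairs (0.79, SE 0.11, adjusted p = 0.000114), as was the proteoglycan Vcan (0.83, SE 0.10, adjusted p = 3.45e-05). Postn ran from 5.19 to 15.6 CPM against 3.21 to 9.11 CPM in the 11 pairs, and was 20.3 and 12.9 CPM in pair 9.1. The fibrillin Fbn1 (0.57, SE 0.09) and Col5a2 (0.37, SE 0.08) were also higher. Of 10 fibro-adipogenic progenitor markers, Pdgfra (0.23, SE 0.07) and Hsd11b1 (0.19, SE 0.07) were higher, and of 9 satellite cell markers 1, Pax7 (0.19, SE 0.07), was (2 without 9.1).

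Secreted factors of muscle split evenly, with 8 of 30 myokines and growth factors higher and 8 lower (9 and 8 without 9.1). Ostn, the muscle peptide musclin, ran from 27.4 to 62.0 CPM (median 47.9) in gastrocnemius and from 8.29 to 21.4 CPM (median 14.9) in quadriceps, without overlap (1.46, SE 0.27, adjusted p = 0.000857; 1.73 without 9.1). Mstn, myostatin, which restrains muscle growth, had medians of 62.1 and 40.4 CPM (0.47, SE 0.15, adjusted p = 0.0215; 0.63, adjusted p = 7.15e-06, without 9.1). Igf1, which promotes growth, was higher as well (0.32, SE 0.06, adjusted p = 0.000816). Gdf11, a close relative of myostatin, was lower in all 12 pairs, with medians of 6.2 and 11.3 CPM (-0.65, SE 0.10, adjusted p = 0.000256). Dkk3, a secreted Dickkopf family protein, was also lower in all 12, with medians of 24.4 and 43.7 CPM (-0.98, SE 0.13, adjusted p = 8.15e-05). Bdnf (-0.66) and Bmp5 (-0.64) were lower and Fgf2 (0.77) and Bmp4 (0.41) higher. Cntfr, the receptor subunit for ciliary neurotrophic factor, was lower in all 12 pairs (-0.68, SE 0.10, adjusted p = 0.000142).

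At the neuromuscular junction, 3 of 18 genes were higher and 3 lower (5 and 3 without 9.1), shares in 12 pairs near the 16.4% and 17.1% over all genes. Musk, the kinase that clusters acetylcholine receptors, ran from 46.5 to 74.2 CPM (median 60.8) in gastrocnemius and from 22.3 to 42.3 CPM (median 30.5) in quadriceps (0.76, SE 0.15, adjusted p = 0.00127; 0.93, adjusted p = 5.24e-10, without 9.1). Utrophin, Utrn, was higher (0.41, SE 0.07), and the esterase Ache (-0.20, SE 0.04) and Ufsp1 (-0.23, SE 0.05) were lower. Of 14 denervation response genes, Myog (0.48, SE 0.15) and the embryonic myosin Myh3 (0.62, SE 0.17) were higher and Myod1 (-0.23, SE 0.05) lower, and without 9.1 the counts were 5 higher and 1 lower. Of 11 muscle spindle genes tested, Tbx4 was higher, and Myh6 (-1.17, SE 0.21, adjusted p = 0.000857) and Etv4 (-0.57, SE 0.13) lower. Calcium handling and ion channels gave 10 of 35 higher and 10 lower (13 and 13 without 9.1). Ryr3, the minor ryanodine receptor, had medians of 2.90 and 0.852 CPM, without overlap in the 11 pairs (1.55, SE 0.27, adjusted p = 0.000597). The potassium channel Kcnc4 had medians of 66.9 and 113 CPM (-0.65, SE 0.09, adjusted p = 0.000115), and the calcium channel subunit Cacnb1 medians of 132 and 174 CPM (-0.38, SE 0.05, adjusted p = 0.000156). Among 25 sarcomere and stretch genes, 3 were higher (titin, Ttn, at 0.24, nebulin, Neb, at 0.23, which was -0.0076 with the length slope, and the ubiquitin ligase Trim63 at 0.19) and 3 lower (Actc1, Cryab at -0.35 and Kbtbd13 at -0.18), and without 9.1 the counts were 4 and 4. The 10 general myofibre markers had 2 calls in each direction (2 higher and 3 lower without 9.1). Heat shock genes gave 8 of 19 lower and none higher (8 and 1 without 9.1), among them Hspb6 (-0.37, SE 0.10) and the chaperonin Hspe1 (-0.27, SE 0.07).

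Among clock and activity genes, more were called higher than lower. Of 19 circadian clock genes, 9 were higher and 3 lower (12 and 2 without 9.1). Their median length was 4971 bases, against 3461 over all genes tested. Among all genes, the longest class had 1090 called higher and 181 lower. Counts for the clock list with the length slope are not given here. Clock had medians of 41.6 and 29.7 CPM (0.38, SE 0.06, adjusted p = 0.000298), Rora of 101 and 75.7 CPM (0.38, SE 0.07, adjusted p = 0.000751), and the repressor Nfil3 of 14.4 and 22.1 CPM (-0.42, SE 0.08, adjusted p = 0.000807). Arntl, the partner of Clock, was not called (0.06). Of 21 immediate early genes, 5 were higher, among them the nuclear receptors Nr4a3 (0.91, SE 0.17) and Nr4a1 (0.26, SE 0.08), and 1, Arc (-0.71), was lower (7 and 2 without 9.1). Fos was not called (0.11).

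Clock genes also varied together in both muscles of a number. Across the 12 pairs, log2 Arntl in gastrocnemius followed that in quadriceps with Pearson's r = 0.950 and Spearman's rho = 0.958 (permutation tests adjusted over 12 genes, p = 0.00024 and 0.00012), and r was 0.958 without the libraries of the numbers in Gas_10.3 and Gas_7.1, the farthest from the median. The clock output gene Dbp gave r = 0.942 and rho = 0.846 (permutation tests, adjusted p = 0.0003 and 0.00486), and r was 0.842 without the pairs 5.3 and 7.1. Dbp ranged from 11.8 to 76.6 CPM in gastrocnemius and from 9.80 to 72.7 CPM in quadriceps, with both ends of each range in the pairs 5.3 and 7.1. Pfkfb3, a regulator of glycolysis, gave r = 0.746 (permutation test, adjusted p = 0.0199) and rho = 0.643 (adjusted p = 0.108), and r fell to 0.538 without the libraries of the numbers in Gas_8.4 and Gas_10.1, and rose to 0.935 without 9.1. Lep (r = -0.15), Myh7 (-0.123) and Hbb-bs (0.043) showed no such relation that passed the permutation test. In pair 9.1, Arntl was 32.6 and 29.2 CPM and Dbp 36.3 and 51.6 CPM. Without 9.1, r was 0.952 for Arntl and 0.979 for Dbp.

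A set of 554 called genes had 1 direction in all 12 pairs, 9.1 included, 327 higher and 227 lower. Zbed6, which represses Igf2 in muscle, led those that were higher, with 7.68 to 24 CPM (median 16.8) against 1.54 to 4.36 CPM (median 3.36), a fold change of 2.58 (SE 0.19, adjusted p = 1.19e-06). Its single exon (chromosome 1, 133655879 to 133660885) lies wholly within exons of Gm38394 on the same strand, so how reads were divided between them is uncertain. The aminopeptidase Lnpep, which travels with the glucose transporter of insulin-responsive vesicles, ran from 6.41 to 13.2 CPM against 3.89 to 6.22 CPM (1.11, SE 0.11, adjusted p = 1.41e-05). In pair 9.1 Lnpep was 13.7 and 3.70 CPM, outside these ranges of the other 11 pairs. Malat1, an abundant nuclear noncoding RNA, had medians of 257 and 124 CPM (0.97, SE 0.09, adjusted p = 5.05e-06). Stard9 (0.96, SE 0.13), which shares 2207 exon bases with Cdan1 on the other strand, Nlrc3 (0.81, SE 0.12), the motor Myo5a (0.79, SE 0.08), the ligase Cbl (0.77, SE 0.08), the dioxygenase Tet2 (0.73, SE 0.11) and Ank2 (0.71, SE 0.11) were further members. Those lower in all 12 pairs included Mybph, a myosin-binding protein (-0.88, SE 0.12, adjusted p = 0.000104), Hp, haptoglobin (-0.54, SE 0.10), and Maob, a monoamine oxidase (-0.51, SE 0.07). Mybph shares 1162 exon bases with Adora1 on the other strand. Of the 219 genes that differed at least 2-fold over the 11 pairs and were also tested over 12, 28 kept their direction in pair 9.1, 23 higher and 5 lower. The median length of the 23 was 4404 bases, against 2591 for the 89 that were higher in 11 pairs and had the opposite direction in 9.1.

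The muscle difference was then set beside that of sedentary mice, as mean log2 ratios per group. Tbx1 stood at -3.21 ± 0.21 in the 11 exercised pairs, -3.05 ± 0.35 in 9 sedentary pairs at 18 months and -3.00 ± 0.28 in 10 sedentary pairs at 10 months (SD). Ostn stood at 1.71 ± 0.17, 1.85 ± 0.39 and 2.1 ± 0.29. Fasn stood at -1.94 ± 0.60, -2.19 ± 0.85 and -0.89 ± 0.50, and Scd1 at -1.40 ± 0.59, -1.76 ± 0.73 and -0.73 ± 0.40. Actc1 stood at -0.90 ± 0.48, -0.32 ± 0.46 and -0.21 ± 0.36. The groups overlapped within their SD for Tbx1, and Fasn and Scd1 had their smallest mean difference at 10 months.

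**Figure D5:**
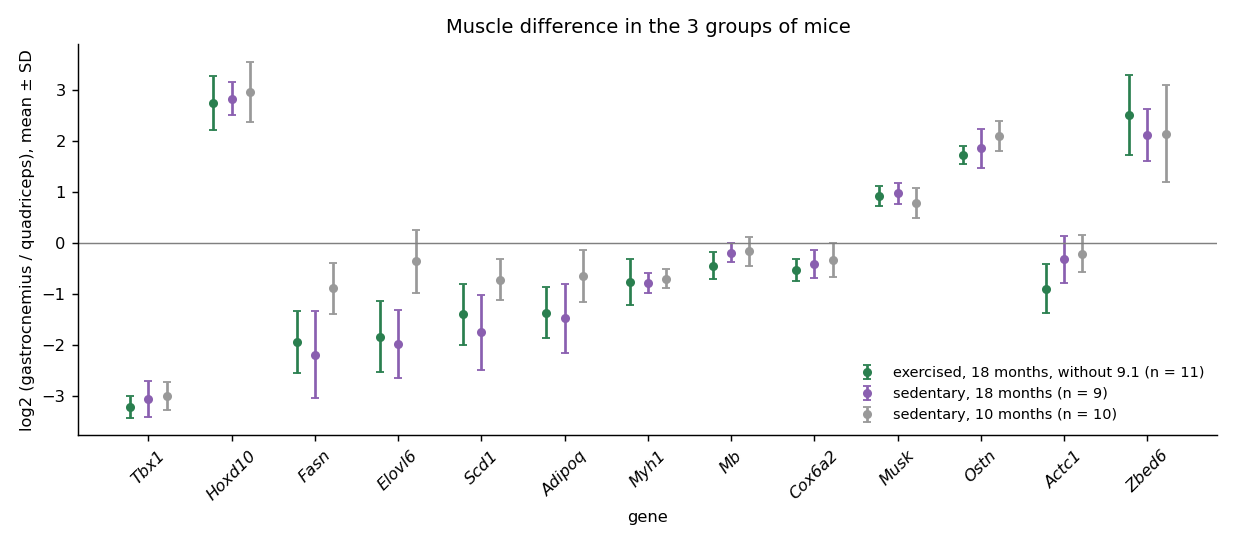
Mean log2 ratio of gastrocnemius to quadriceps, with SD over pairs, for 13 genes in exercised mice at 18 months without pair 9.1 (n = 11), sedentary mice at 18 months (n = 9) and sedentary mice at 10 months (n = 10). Tbx1 and Hoxd10 have like means in the 3 groups, and Fasn, Elovl6, Scd1 and Adipoq lie nearest to 0 at 10 months.

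In 1 edgeR fit of all 31 pairs, the muscle difference of exercised mice minus that of sedentary mice at 18 months passed the test for 0 of 15426 genes (0%), and 959 had an unadjusted p under 0.05. Without 9.1 the count was again 0 of 15395 (0%), with 1113 at an unadjusted p under 0.05. DESeq2 called 2 genes, Mvp and Lgals12, and limma none. Mvp, the major vault protein, had the smallest p: its mean log2 ratio was -0.12 ± 0.18 in the 12 exercised pairs and 0.25 ± 0.10 in sedentary mice of that age (fitted difference -0.37, SE 0.07, adjusted p = 0.188). Lgals12, a galectin of fat cells, had ratios of -0.15 ± 0.71 in the 12 pairs and -1.19 ± 0.58 (fitted difference 1.09, SE 0.23, adjusted p = 0.199). Fgf14 (difference 0.78, SE 0.17), Slc43a3 (0.33, SE 0.07) and Rab15 (-0.72, SE 0.16) followed, each with an adjusted p of 0.199. For Actc1 the difference was -0.57 (SE 0.17, adjusted p = 0.530).

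Against sedentary mice at 10 months, which differ in both age and exercise, 0 of 15426 genes passed (0%), with 1226 at an unadjusted p under 0.05. Without 9.1, 12 genes (0.0779%) were called, 10 with a negative and 2 with a positive difference. Among the called genes, Slc25a1 exports citrate from mitochondria, Slc25a10 carries dicarboxylates, and Pgd and Tkt are enzymes of the pentose phosphate pathway. Tkt had medians of 18.4 CPM in gastrocnemius and 39.9 CPM in quadriceps of the 11 exercised pairs, and of 15 and 18.6 CPM at 10 months (difference of log2 ratios -0.89, SE 0.15, adjusted p = 0.00895). Elovl6 had medians of 2.74 and 10.6 CPM in exercised mice and of 1.54 and 2.17 CPM at 10 months (-1.33, SE 0.25, adjusted p = 0.0429). For Slc25a1 the medians were 9.01 and 28.8 CPM, and 4.93 and 7.94 CPM at 10 months (-0.85, SE 0.18, adjusted p = 0.0475). In each of these 3 genes the quadriceps level was the one that differed more between the groups. The other called genes were Acly (-0.80), Slc25a10 (-0.72), Pgd (-0.43), Adora1 (-1.06), Mapk8ip1 (-0.56), Ttc9 (-0.79), Egln3 (-0.54), Lrrn4cl (0.67) and Klf4 (0.43). Adora1 shares 1162 exon bases with the more abundant Mybph on the other strand, and reads there cannot be told apart unless the counting used strand. With the exercised pair of Gas_10.3 and the pairs 2.2 and 3.1 of the 10-month group also left out, 0 were called and the smallest adjusted p was 0.0603. Against sedentary mice of the same age the difference of Elovl6 was 0.30 (adjusted p = 0.802) and that of Slc25a1 0.03 (adjusted p = 0.982).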

How the data were processed

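Polyadenylated RNA was sequenced after TruSeq RNA v2 library preparation, per the labels' protocols. The submitters' processing notes name STAR 2.5.2b and the build GRCm38.p5. What counted the reads, and whether it used strand, is not given in the sources used here. Deposited counts are whole numbers per gene, not normalized, for 35870 genes, and 49 rows had no symbol. TPM values were deposited by the authors as counts scaled by gene length and library. They were used to compare levels between genes and, for Eno1, Pgam2, Pfkl, Akt2 and Cox8b, between muscles.

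The main test was edgeR's quasi-likelihood F test (version 4.0.16, R 4.3.3) on these counts, with TMM scaling, filterByExpr (minimum count 10, minimum total 15), and the title number as a block beside muscle. A call means a p under 0.05 after Benjamini-Hochberg adjustment over every gene tested. Differences from sedentary mice were contrasts of 1 fit of 31 pairs. CPM are TMM-scaled. Median and range of CPM are over the 11 pairs without 9.1. Gene positions are from GENCODE M21, promoters from RefSeq. The procedure was tested on simulated data. Some list members are not reported here. No 2 libraries of a muscle were copies (lowest chi-square per gene 9.64).

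Same-numbered muscles deviated together from their group means, with r = 0.140 to 0.538 in 11 pairs and -0.199 in pair 9.1, and 9 of 12 gastrocnemius libraries correlated best with their own number. The labels do not say what the number marks.

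The comparison, its 38 gene lists (717 symbols, all matched) and the naming rule were chosen with earlier results of these data known. The rule took the 12 largest changes per direction among called genes whose mean log2 CPM was 1 or more and that had 1 direction in all 12 pairs, at most 4 called genes per list, smallest p first, 25 fixed genes, and, for differences from sedentary mice, the 5 smallest p-values where none was called. After the values were seen, the largest changes over 11 pairs, other list members by value, and the genes called without 9.1 against 10 months were added.

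Alternatives were DESeq2 1.42.0, limma voom 3.58.1, RLE and upper quartile scaling, other count filters, no block, a length slope covariate and leaving out each pair. Settings that combine the omission of 9.1 with another choice were chosen after seeing the data.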

Additional observations from a re-analysis of the deposited data

Results flagged for a closer look

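A pair of single values stood apart from their group, both in sedentary mice at 10 months. The log2 ratio of Zbed6 was -0.43 in pair 2.2, while the other 9 pairs were all above 0. That of Myh1 was -1.16 in pair 2.1, below the other 9 pairs. Each lay farther from its nearest neighbour, as a share of the group's range, than the 95% limit for 10 samples. By chance about 1 in 20 groups would exceed it. The check was run on Tbx1, Hoxd10, Fasn, Scd1, Zbed6, Myh7, Myh1 and Mb, each in both sedentary groups, so some excess by chance is likely. Neither value belongs to the exercised pairs.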

How the results depend on the processing

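Without the replicate block, 3658 genes were called and 137 by at least 2-fold; among 175 named genes tested, 30 lost their call and none changed sign. Leaving out each pair in turn gave 3879 to 6039 calls and 144 to 220 by at least 2-fold, both highest without 9.1. Many named genes were picked by their calls in these same pairs, which bears on the counts of lost calls. Of the named genes, 1 (Lmod2) lost its call without 9.1, and 6 to 17 did without any single other pair, with 17 lost without 8.3; Csrp3, Atp2a2, Lmod2, Mb, Ttn, Trim63, Pax7, Ptprc and Hbb-bs were among those that did so in several of these. The length slope reduced the calls to 140, and to 2405 without 9.1; of the 175 named genes, 136 kept their sign but lost their call with it, 9 changed sign and 30 did neither, and without 9.1 the first 2 counts were 47 and 8. Calls of at least 2-fold numbered 325 with no count filter, 85 with at least 10 counts in every library, 21 with the length slope, and 247 with the slope and without 9.1. DESeq2, RLE and upper quartile scaling gave 4681, 4862 and 4831 calls; with no count filter 55.6% of calls were higher, against 49.1%.

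For exercised minus sedentary mice at 18 months, no count filter gave 124 calls, DESeq2 2, and leaving out pair 9.1, the pair of Gas_10.3 and the 10-month pairs 2.2 and 3.1 gave 1, Mvp. At 10 months the counts were 147 with no filter, 12 with limma, 11 with DESeq2 and 12 without 9.1. The cause was not tested. No replicate block gave 0 in both.

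Adding the length slope turned the sign of 10 named genes, in 12 pairs or in 11; 3 of them, Neb, Cox8b and Hbb-bs, were called without it. In 12 pairs these were Neb (-0.0076), Cox8b (0.049), Hbb-bs (0.065), Tnnt3 (0.016), Tnni2 (0.021), Tnnc2 (0.097), Lgals12 (0.027), Rab15 (-0.069) and Ttc9 (-0.195). Without 9.1 they were Neb (-0.029), Cox8b (0.044), Myh7 (-0.035), Tnnt3 (0.058), Tnni2 (0.039), Tnnc2 (0.161), Rab15 (-0.114) and Ttc9 (-0.240). Leaving out pairs in turn, Ttc9 ran from -0.050 to 0.106. Depth limits the genes under 1 CPM, such as Ibsp, Col2a1 and the lymphocyte markers.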

Other observations

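Mss51, a mitochondrial protein of fast muscle, ran from 130 to 336 CPM (median 199) in the 11 gastrocnemius libraries and from 49.7 to 125 CPM (median 83.6) in quadriceps, without overlap (1.23, SE 0.20, adjusted p = 0.000318; 1.43 without 9.1). Pthlh, the parathyroid hormone-like peptide, ran from 2.12 to 3.88 CPM against 0.768 to 1.4 CPM (1.2, SE 0.24, adjusted p = 0.0015). Cyp4f39, a cytochrome P450 of fatty acid hydroxylation, ran from 0.829 to 4.41 CPM against 13.2 to 34.6 CPM (-2.65, SE 0.37, adjusted p = 0.000142; -2.99 without 9.1). Lrtm2 (-2.22, SE 0.36) and the microtubule-severing Katnal2 (-2.21, SE 0.27) were lower without overlap in the 11 pairs, and so was the retinol carrier Rbp4 (-1.41, SE 0.25). In pair 9.1, Cyp4f39 was 22.5 CPM in the library labelled gastrocnemius and 4.55 CPM in that labelled quadriceps, the reverse of the other pairs.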
